A study of Mus musculus with 8 samples.

Results

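The genes described here code for the proteins of the cytosolic ribosome in V6.5 mouse embryonic stem cells, a line that grows as undifferentiated colonies in culture. They were chosen by symbol alone: every gene of the array annotation named Rpl or Rps followed by a number, and Rplp0, Rplp1, Rplp2 and Rpsa, without the Rps6k kinases and without pseudogene symbols ending in -ps. Of 18140 genes with a probe set of exactly 1 symbol, 50 met this rule, 26 with a large-subunit symbol and 24 with a small-subunit symbol. A probe set is the group of short oligonucleotides with which an Affymetrix array measures a transcript, and the brightest probe set with 1 symbol stood for each gene. One gene that met the rule, Rps19bp1, encodes a binding protein of Rps19 and no ribosomal protein, and 6 are paralogues of the usual subunits (Rpl3l, Rpl7l1, Rpl22l1, Rpl39l, Rps4l and Rps27l).

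The study asked what is expressed in these cells when subunits of condensin or cohesin, ring-shaped complexes that bind chromosomes, are depleted. Each culture received virus for 1 hairpin RNA, against CapH2 (gene Ncaph2, condensin II), Smc2 (a core subunit of condensin I and II), Smc1 (gene Smc1a, cohesin) or, as the control, GFP, which mouse cells lack. The CapH2 arrays were hairpins 3 and 4, 1 array each, and the Smc2 arrays were hairpins 1 and 2, 1 array each. The 2 Smc1 arrays and the 2 GFP arrays were biological replicates of 1 hairpin each, so an effect of that hairpin cannot be told apart from that of its target. All 4 groups, GFP included, were infected with lentivirus in 8 µg/ml polybrene and then kept in 4 µg/ml puromycin for 4 days, and RNA was taken on day 5. Each of the 8 arrays started from 100 ng of total RNA.

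A mammalian ribosome has a large subunit, which joins amino acids and holds the tunnel through which the new chain leaves, and a small subunit, which reads the mRNA. Each ribosome takes 1 copy of nearly every ribosomal protein, and growing cells keep the mRNAs of the whole set at very high and similar levels. These mRNAs start with a run of pyrimidines (a terminal oligopyrimidine, or TOP, start) through which mTOR signalling sets how much of them is translated. Ribosomal protein genes also have many near-identical processed pseudogenes, so that short probes for them can match more than 1 place in the genome.

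The start regions of 7 members are shown because the results turn on the first 3, which were lower in the Smc1 knockdown, and because the other 4 show how varied or alike the starts of members are. Each run holds 60 bases before and 30 bases from the annotated start, 5′ to 3′, in RefSeq's GRCm38.p6 coordinates, with CCGGAAG (the core recognised by GABP and other ETS factors) on either strand and the pyrimidine run CTTTC, on the sense strand from 30 bases before the start on, in capitals.
Rps25 (chr9:44407654-44407743, plus strand): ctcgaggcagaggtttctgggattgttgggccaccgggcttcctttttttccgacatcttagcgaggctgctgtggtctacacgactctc
Rpl12 (chr2:32961652-32961741, plus strand): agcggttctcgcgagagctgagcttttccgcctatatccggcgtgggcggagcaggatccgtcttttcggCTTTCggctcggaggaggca
Rpl39l (chr16:10170168-10170257, plus strand): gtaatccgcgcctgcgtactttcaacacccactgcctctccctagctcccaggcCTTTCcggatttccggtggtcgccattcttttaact
Rpl38 (chr11:114668520-114668609, plus strand): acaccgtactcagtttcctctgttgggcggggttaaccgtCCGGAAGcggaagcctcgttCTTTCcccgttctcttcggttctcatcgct
Rplp2 (chr7:141447591-141447680, plus strand): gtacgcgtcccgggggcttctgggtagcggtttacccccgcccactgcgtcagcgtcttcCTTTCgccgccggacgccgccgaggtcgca
Rps10 (chr17:27635215-27635304, minus strand): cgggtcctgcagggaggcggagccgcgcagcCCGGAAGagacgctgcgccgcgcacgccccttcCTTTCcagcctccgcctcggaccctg
Rps6 (chr4:86857338-86857427, minus strand): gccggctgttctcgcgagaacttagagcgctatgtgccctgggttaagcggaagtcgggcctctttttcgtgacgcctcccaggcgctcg
Rpl38 and Rps10 show both motifs in capitals, Rpl12, Rpl39l and Rplp2 show CTTTC alone, and Rps25 and Rps6 show neither within the printed bases. RefSeq windows were found for 44 of the 50 members, 52 windows in all, and Rps29, Rps4l, Rps14, Rpl7, Rps20 and Rpl8 had no entry. Over the full window of 250 bases before to 50 after the start, CCGGAAG on either strand was in 21 of the 52 member windows (40.4%), against 8.86% of 32851 windows of all genes. Of the genes printed above, Rps25, Rpl39l, Rpl38, Rplp2, Rps10 and Rps6 held it in that window, and Rpl12 did not. AAGATGGC, the core recognised by YY1, was in 4 of 52 on either strand (7.69%, against 2.75% of all windows). CTTTC on the sense strand, from 30 bases before to 50 after the start, was in 20 of 52 (38.5%), against 10.3% of all windows. CCGGAAG ends and AAGATGGC starts with AAG, so these 2 can match overlapping bases, and a match describes letters only, not binding.

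The deposited values are linear intensities from 0.0461 to 54756, and changes below are differences of log2(intensity + 16) with limma standard errors (SE), n = 2 arrays per group. Genes entered the test if 2 or more arrays had them above that array's median intensity; 12400 genes did, with 49 of the 50 members. Rps16, whose protein reaches the decoding site of the small subunit, was the member not tested, at 0.86 and 1.84 on CapH2, 1.15 and 0.97 on Smc2, 27.0 and 1.06 on Smc1 and 3.04 and 1.05 on GFP arrays. The hairpins lowered their targets: Ncaph2 by -2.96 in CapH2 (limma adjusted p = 0.00119), Smc2 by -1.64 in Smc2 (adjusted p = 0.0157) and Smc1a by -2.95 in Smc1 (adjusted p = 8.0e-05). All 13 pluripotency markers, among them Pou5f1 and Nanog, read 746 or more on every array, so the defining markers of the labelled cell type were present. All comparisons with GFP share the same 2 GFP arrays.

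Many members were among the brightest genes on the arrays. Of the 50 genes with the highest mean intensity 30 were members, and of the brightest 100 genes 35 were. Rpl13a, a large-subunit protein with a known translational silencing role in human myeloid cells, had the highest mean, with 39974 and 43387 on CapH2, 42135 and 47017 on Smc2, 40851 and 43880 on Smc1 and 54756 and 43800 on GFP arrays. The next were Rps29, a zinc-binding protein of the small-subunit head, Rps20, which sits by the mRNA path, and Rps18, at means of 44210, 44064 and 43251 over the 8 arrays. In all 36 members had a mean above 16384, a limit set with the values known, from 19440 (Rpl22l1) upward, and the 13 other tested members ran from 83.0 (Rpl3l) to 12842 (Rps4l). Different probe sets have different sensitivity, so this order is one of brightness and not of RNA amount.

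One GFP array stood apart in these bright members, as the plot of members by array shows. The median level of the 36 bright members was 31717 and 31968 on the CapH2 arrays, 33658 and 36286 on Smc2, 33217 and 34358 on Smc1, and 41058 and 33261 on GFP replicates 1 and 2. GFP replicate 1 was the highest array for all 36 of them and for 41 of all 50 members. GFP replicate 2 lay inside the range of the knockdown arrays. The top of the array, which holds many of the members (30 of the brightest 50 genes), moved alike. The 99.9th percentile of intensity was 32231 and 33451 on CapH2, 34662 and 37243 on Smc2, 33689 and 36217 on Smc1 and 42407 and 34922 on GFP. After quantile normalization, every array's median deviation of the bright members was within 0.02 of the gene means on the log2 scale. Quantile normalization gives all arrays the same distribution, so it also evens out a change shared by the brightest genes. These values therefore cannot tell the scale of the array's top apart from a change of the members, and this was not tested.

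**Figure D1:**
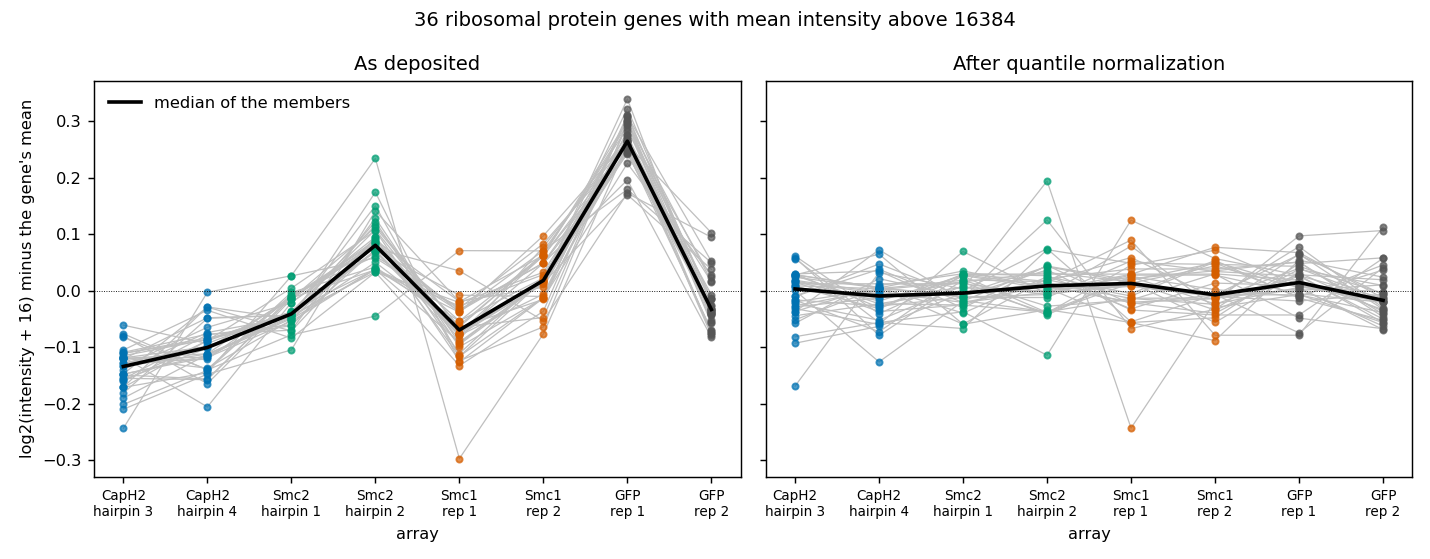
Deviation of log2(intensity + 16) from each gene's own mean for the 36 members with mean intensity above 16384, by array, as deposited (left) and after quantile normalization (right); grey lines join a gene's values and the black line is the median. As deposited GFP replicate 1 has the highest value of every one of the 36 genes, and after normalization the medians lie near 0.

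**Figure D2:**
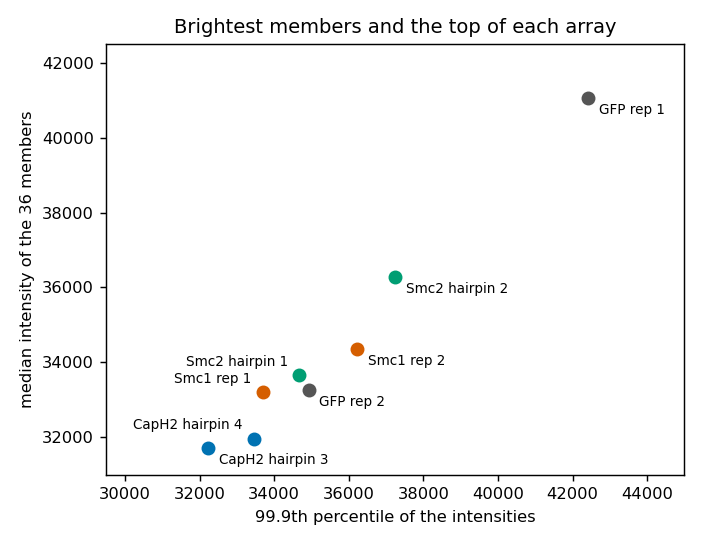
Median intensity of the 36 bright members against the 99.9th percentile of all intensities, members included, 1 point per array. GFP replicate 1 is the point at 42407 and 41058, and the 7 other arrays lie between 32231 and 37243 on the x axis.

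In the CapH2 knockdown the members were low as a group, with no single gene past the test. Their median change was -0.24, against 0.01 over all genes tested, and 46 of 49 had a negative change. No member was called at adjusted p below 0.05 (background 0.0161% of all genes, n = 12400), while 15 had an unadjusted limma p below 0.05 (all genes 12.6%). That count was 2 after quantile normalization (all genes 12.9%) and 1 after median centring (all genes 13%). The CapH2 arrays lay below both GFP arrays for 37 of the 49 (background lower 21.9%) and above both for 3 (background higher 25.3%). Quantile normalization moved the median to -0.01, with 32 negative, 10 of 49 below both GFP arrays (background 21.4%) and 7 above (background 25.9%). Median centring left the members' median at -0.17, with 44 negative (all genes 0.08). Without GFP replicate 1 the members' median was -0.09, and without GFP replicate 2 it was -0.38.

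Among the bright members the CapH2 changes ran from -0.32 to -0.13, a narrow band. Rps19, the small-subunit protein most often mutated in human Diamond-Blackfan anaemia, was at the low end with -0.32 (SE 0.125), and -0.09 after quantile normalization. Rpsa, the small-subunit protein also known as the laminin receptor, had 34055 and 35927 on CapH2 against 48574 and 38173 on GFP arrays, so that both CapH2 arrays were below both GFP arrays (-0.30, and -0.06 after normalization). Rpl11, which with Rpl5 and the 5S rRNA can bind Mdm2, had -0.22 and 0.01. Rplp0, the P-stalk protein often used as a control gene, had -0.19 and 0.05. The 124 other genes above 16384 had a median of -0.16, and 0.03 after normalization.

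The members' share of the summed intensity of all genes was also highest on GFP replicate 1 and lowest on the CapH2 arrays. It was 5.70 and 5.81% on CapH2, 5.96 and 6.40% on Smc2, 5.87 and 6.21% on Smc1, and 7.09 and 6.14% on GFP arrays. The CapH2 share was 5.75 ± 0.076% and the GFP share 6.61 ± 0.673% (SD, n = 2 each), a difference of -0.86 percentage points with an exact two-sided permutation p of 0.333, the smallest that 2 against 2 arrays allow. Smc2 and Smc1 differed from GFP by -0.43 and -0.57 points (exact permutation p = 0.667 each). After quantile normalization the differences were -0.11, -0.05 and -0.13 points.

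In the Smc2 knockdown the members' median change was -0.09, against -0.00 over all genes, with 43 of 49 negative. The 36 bright members had -0.09 and the 124 other genes above 16384 had -0.04 (0.00 and 0.01 after quantile normalization). No member was called (background 0.0161%), and 1 had an unadjusted limma p below 0.05, against 12.6% of all genes. Only Rpl35 and Rps15 lay below both GFP arrays on both Smc2 arrays (2 of 49, background 21.7%), and Rpl27a and Rps19bp1 lay above (2 of 49, background 23.2%). After quantile normalization 3 lay below (background 20%) and 6 above (background 25.6%). The members' median was 0.00 after quantile normalization and 0.01 after median centring of the arrays. It was 0.05 without GFP replicate 1 and -0.24 without GFP replicate 2, so its sign turned with the scaling and with 1 GFP array. Median centring also moved the median of all genes in this comparison to 0.10.

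CapH2 and Smc2, both condensin subunits, were also set against each other, in a change that does not use the GFP arrays, though the pooled spread does. The members' median was -0.14 (all genes 0.02), and 46 of 49 changes were negative. The 36 bright members had -0.14 and the 124 other genes above 16384 had -0.10. By limma 0 were called (background 0.00806%), and 0 had an unadjusted p below 0.05 (all genes 1.03%). Both CapH2 arrays lay below both Smc2 arrays for 33 of 49 members (background lower 10.2%) and above for Rpl39 alone (background higher 12.6%). After quantile normalization the members' median was -0.01, with 8 members below (background 11.2%) and 4 above (background 10.5%). After median centring it was -0.17, with 47 changes negative (all genes -0.02). Rps4x, the X-linked small-subunit protein, was at 35653 and 34106 on CapH2 against 35605 and 36435 on Smc2 arrays, which overlap, and so was outside the 33.

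The Smc1 knockdown had the only called members, 3 of 49 and all lower: Rps25, Rpl12 and Rpl39l. Each was measured by only 1 probe set with 1 symbol, of mean 3518, 3139 and 4825, so no second such set could be compared. The background in this comparison was 4.69% called lower and 9.38% called higher (14.1% in all), so 3 of 49 is near the share of all genes called lower, and 0 of 49 were called higher. The median of the members was -0.14 (all genes 0.03), with 46 negative, and -0.01 after quantile normalization with 27 negative. Median centring left it at -0.12, with 46 negative (all genes 0.05). The 36 bright members alone had -0.13 and the 124 other genes above 16384 had -0.15 (0.01 and -0.01 after quantile normalization). Smc1 arrays lay below both GFP arrays for 16 of 49 (background 28.4%) and above for 2, Rpl27a and Rpl39 (background 34.6%). After normalization these were 14 below (background 30.4%) and 10 above (background 33.5%). After quantile normalization Rps25, Rpl12 and Rpl39l were again the called members (background 5.3% lower, 9.07% higher and 14.4% in all).

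Rps25 is a small-subunit head protein known for its part in initiation at viral internal entry sites. Its probe set, 1430978_at, ranked 40 among the 50 members by mean intensity. It read 2165 and 2036 on Smc1 arrays, 2777 and 4249 on CapH2, 3553 and 4234 on Smc2 and 5068 and 4061 on GFP arrays. Both Smc1 arrays were below all 6 others, while the CapH2, Smc2 and GFP values overlapped. The change against GFP was -1.11 (SE 0.216, limma adjusted p = 0.0110), and -1.11 after normalization (adjusted p = 0.0113). Against the mean of CapH2 and Smc2 it was -0.79 (adjusted p = 0.0325).

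Rpl12 lies at the base of the P stalk, where elongation factors bind. It read 1852 and 2251 on Smc1 arrays, 2694 and 3836 on CapH2, 2432 and 3594 on Smc2 and 5041 and 3413 on GFP arrays. The Smc1 arrays were again the lowest, and the Smc2 array of hairpin 1 was the next. The change was -1.02 (SE 0.261, adjusted p = 0.0309), and against the mean of CapH2 and Smc2 it was -0.59 (adjusted p = 0.149).

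Rpl39l is a paralogue of Rpl39, a small protein of the exit tunnel, and is known from its expression in mouse testis. It read 3310 and 3641 on Smc1 arrays, 4621 and 5334 on CapH2, 4555 and 5659 on Smc2 and 6152 and 5328 on GFP arrays. All 6 other arrays were above both Smc1 arrays. The change was -0.72 (SE 0.164, adjusted p = 0.0197), and -0.53 against the mean of CapH2 and Smc2 (adjusted p = 0.0499, and 0.0688 after quantile normalization). 

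The comparison of Smc1 with CapH2 and Smc2 together leaves out the GFP arrays, apart from their share in the pooled spread. It called 2 of 49 members, Rps25 and Rpl39l, both lower, against a background of 2.24% lower and 5.6% higher (7.85% in all). With the replicate block 0 members were called there, and over the 16 other alternatives the Rps25 call was kept in 8 and the Rpl39l call in 3, with no change of sign. The members' median was 0.00 (all genes 0.02). For the 36 bright members it was 0.03, and for the 124 other genes above 16384 it was -0.05. Rpl12, Rpl14, Rpl39l, Rpl3l, Rps19bp1 and Rps25 were lower on both Smc1 arrays than on all 4 condensin arrays (6 of 49, background 14.6%), and Rps4x alone was higher (background 20.5%). After quantile normalization the 2 called were Rps25 and Rpl3l (-1.53, adjusted p = 0.0478; background 2.52% lower, 4.78% higher and 7.3% in all), with 9 members below all 4 condensin arrays (background 17%) and 4 above (background 18.4%).

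The calls against GFP depended on single arrays. Without GFP replicate 1 none of the 3 was called against GFP, with adjusted p of 0.113 for Rps25, 0.231 for Rpl12 and 0.151 for Rpl39l. Without Smc1 replicate 1 they were 0.0836, 0.204 and 0.154, and without Smc1 replicate 2 they were 0.0520, 0.0655 and 0.0555. Without GFP replicate 2 Rps25 was called (0.0425), and Rpl12 and Rpl39l were at 0.0524 and 0.0582. All 3 changes stayed negative in every one of these fits, from -1.26 to -0.95 for Rps25, from -1.30 to -0.74 for Rpl12 and from -0.82 to -0.62 for Rpl39l. Leaving out a CapH2 or Smc2 array alters only the pooled spread, so the changes stayed at -1.11, -1.02 and -0.72.

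**Figure D3:**
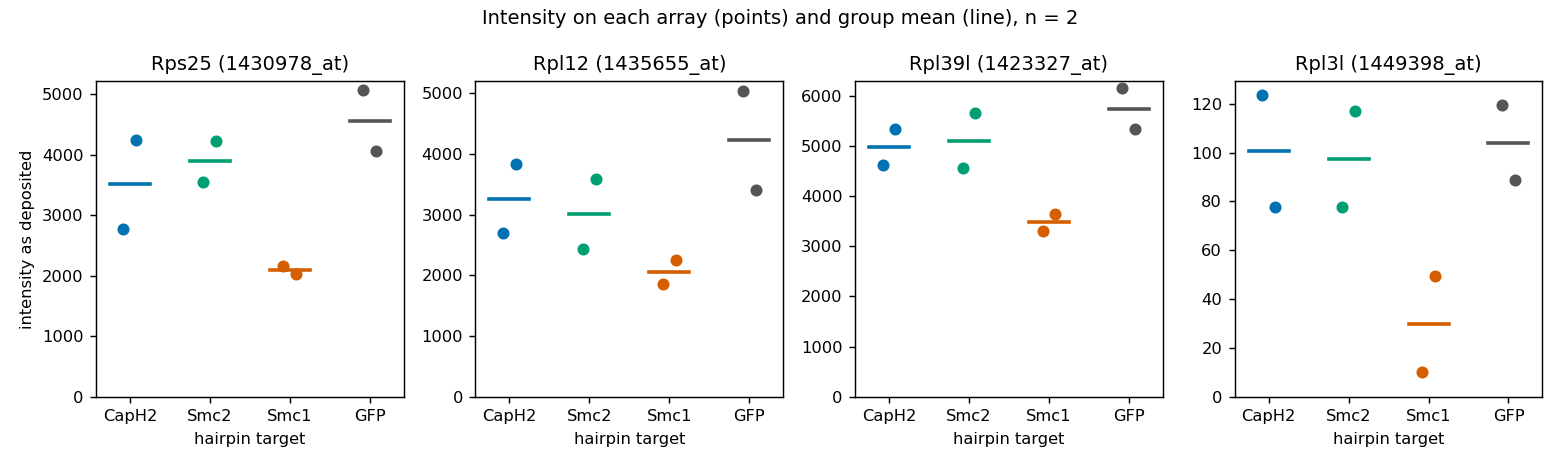
Deposited intensity of Rps25, Rpl12, Rpl39l and Rpl3l on each array (points) with the group mean (line), n = 2, from an axis starting at 0. In all 4 panels both Smc1 arrays lie below the 6 others.

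Other members had sizeable changes in Smc1 that did not pass the test. Rpl3l, the muscle paralogue of Rpl3, read 10.1 and 49.5 on Smc1 against 119.4 and 88.8 on GFP arrays, with 124 and 77.9 on CapH2 and 77.8 and 117 on Smc2 (-1.53, SE 0.472, adjusted p = 0.0574). Its Smc1 arrays were the lowest 2, below the array medians of 62.5 to 74.5. Rpl14, a large-subunit protein, read 1005 and 1080 on Smc1 against 1811 and 1531 on GFP arrays (-0.67, adjusted p = 0.0540). Rpl37, a zinc-binding protein near the exit tunnel, read 6571 and 6735 against 8244 and 10431 (-0.48, adjusted p = 0.0590), and its CapH2 change was -0.42. Rps6, the small-subunit protein phosphorylated by S6 kinases, was measured by a probe set of mean 1598, and read 1443 and 1202 on Smc1 against 1828 and 1760 on GFP arrays (-0.44, adjusted p = 0.122).

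Of the dim members, 3 were among those with the largest positive changes. Rpl39 read 274 and 397 on CapH2, 241 and 216 on Smc2, 347 and 292 on Smc1 and 202 and 231 on GFP arrays. The CapH2 and Smc1 arrays were above both GFP arrays and the Smc2 arrays overlapped them, with changes of 0.58, 0.08 and 0.53 and no call. Rpl39 and Rpl39l thus had changes of opposite sign in Smc1, 0.53 and -0.72, of which that of Rpl39l passed the test; the difference between them was not tested. Rpl27a read 1339 and 1447 on CapH2, 1582 and 1311 on Smc2, 1468 and 1229 on Smc1 and 1146 and 1025 on GFP arrays. All 6 knockdown arrays were thus above both GFP arrays (0.36, 0.40 and 0.31, no call). Its other set, 1419799_at, with a mean of only 6.56, went the other way, at -0.55, -0.65 and -0.69. Rps19bp1 read 2124 and 1678 on CapH2, 2081 and 1900 on Smc2, 1523 and 1386 on Smc1 and 1577 and 1333 on GFP arrays (0.38, 0.45 and 0.00, no call). Rps27, a zinc-finger protein of the small subunit, read 204 and 570 on CapH2, 633 and 439 on Smc2, 288 and 308 on Smc1 and 501 and 346 on GFP arrays.

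Bright and dim members are given apart here, with their values before and after normalization. For the 36 bright members in Smc1 the median was -0.13 as deposited and 0.01 after quantile normalization, with ranges of -0.37 to -0.03 and -0.23 to 0.11. Rps4x had the smallest change as deposited, at 39481 and 39467 on Smc1 against 45478 and 35679 on GFP arrays (-0.03, and 0.11 after normalization). For the 13 dim members, the called Rps25, Rpl12 and Rpl39l among them, the median in Smc1 was -0.46 as deposited and -0.46 after normalization. This median was not set against other genes of like brightness. In CapH2 the dim members had -0.21 and -0.20, and in Smc2 -0.06 and 0.01. The large-subunit and small-subunit medians in Smc1 were close, -0.16 (n = 26) and -0.14 (n = 23). The 7 paralogue or non-canonical members had a median of -0.36 with 1 called, Rpl39l. That median is the value of Rpl7l1 by its brightest set, 1426386_at (mean 2978). Its sets 1452049_at (mean 2824) and 1439780_at (mean 374) went the other way in Smc1, at 0.41 and 0.44.

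**Figure D4:**
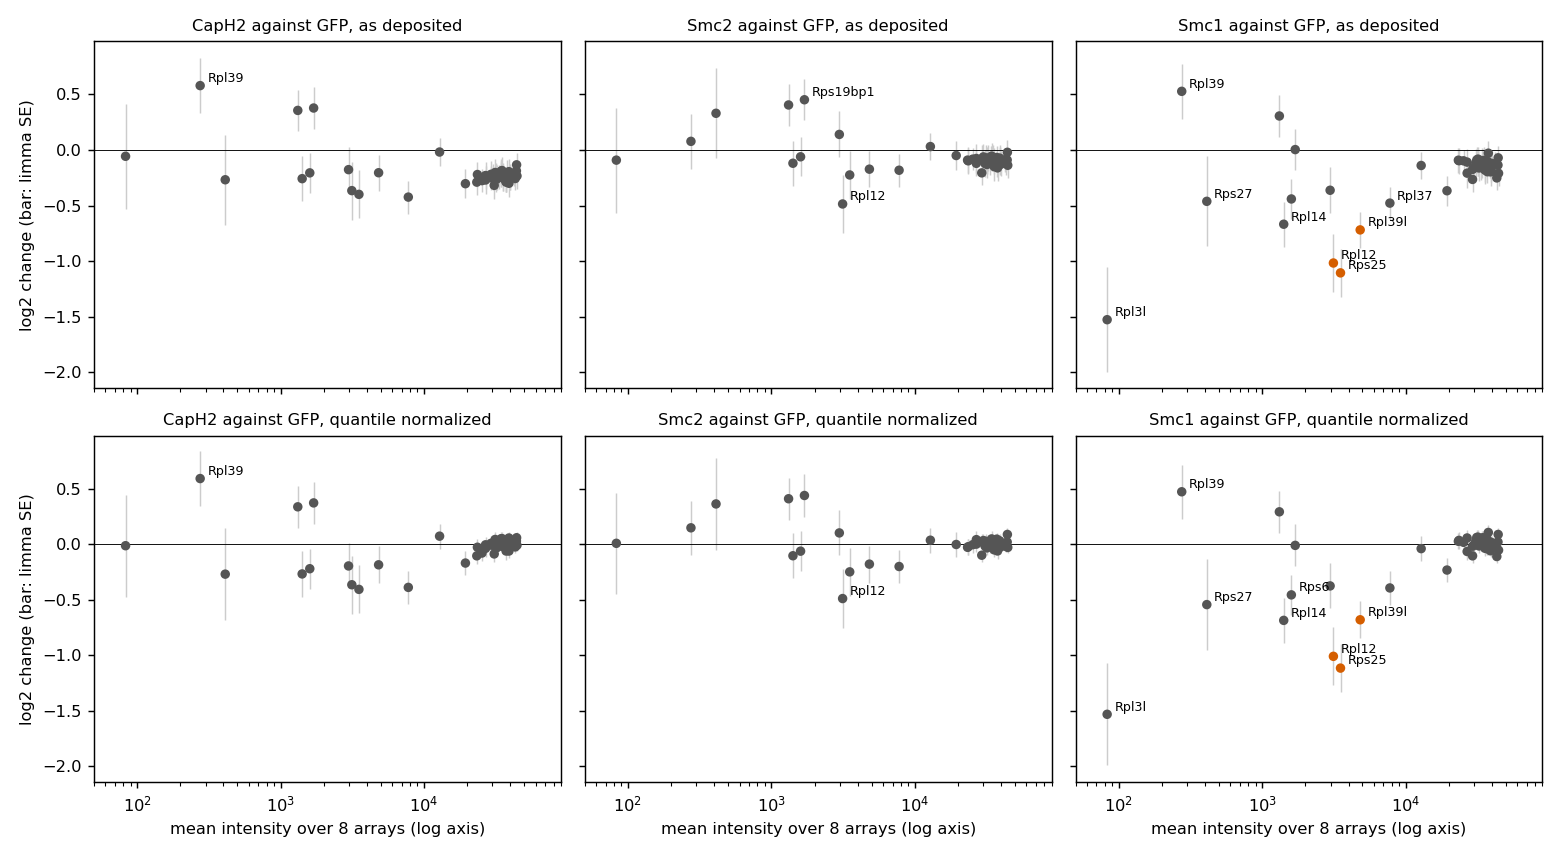
Log2 change against GFP with its limma SE for the 49 tested members, by mean intensity (log axis), in the CapH2, Smc2 and Smc1 knockdowns, as deposited (top) and after quantile normalization (bottom); orange points were called. The bright members sit at small negative changes on top and around 0 below, and Rps25, Rpl12 and Rpl39l stay at -1.11, -1.01 and -0.68 below.

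Probe sets of the same gene did not always give the same change, and the sets described next were chosen after the values were seen. The 50 members had 105 probe sets with 1 symbol, 24 members had more than 1, and 12 had sets on both sides of 16384. Tested one by one among 21730 probe sets, 8 of 97 member sets from 6 genes were called in Smc1, all lower (background 4.79% lower and 12.7% in all; 9 sets and 5.69% lower after quantile normalization), and 0 in CapH2 and 0 in Smc2 (background 0.0092% each). The 69 member sets above 16384 had a Smc1 median of 0.01 after quantile normalization (range -0.34 to 0.11). The 28 dimmer sets that were tested had -0.53 (range -2.67 to 0.47), and the only sets of Rps25, Rpl12 and Rpl39l are among them. These 28 were not set against other probe sets of like brightness.

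Rps20 had the largest such gap among the called sets. Its 2 bright sets (1456373_x_at and 1456436_x_at) had changes of -0.14 each in Smc1 with no call, and the first read 41651 and 44399 on Smc1 against 49471 and 45147 on GFP arrays. Its dim set 1450417_a_at read 262 and 280 on CapH2, 259 and 389 on Smc2, 93.5 and 158 on Smc1 and 806 and 855 on GFP arrays. All 6 knockdown arrays were below both GFP arrays and the Smc1 arrays were the lowest. The changes of this set were -1.56, -1.34 and -2.62, with limma adjusted p of 0.111, 0.152 and 0.00115, so Smc1 alone was called with all 8 arrays in the fit. The other dim set, 1421935_at, read 196 and 194 on CapH2, 172 and 322 on Smc2, 90.2 and 140 on Smc1 and 591 and 588 on GFP arrays (-1.52, -1.26 and -2.23, adjusted p = 0.00262 in Smc1).

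Both dim Rps20 sets were called in Smc1 with each of the 8 arrays left out in turn, at adjusted p of up to 0.0242 for 1450417_a_at and up to 0.0408 for 1421935_at. Their calls in the other knockdowns turned on single arrays. In CapH2 against GFP both were called without the Smc2 array of hairpin 1 (limma adjusted p = 0.0444 for 1450417_a_at and 0.0450 for 1421935_at) or of hairpin 2 (0.0429 each). In Smc2 against GFP both were called without the Smc2 array of hairpin 2, at -1.62 (0.0350) and -1.68 (0.0345). After quantile normalization the Smc1 changes were -2.67 and -2.29. Against the mean of CapH2 and Smc2, 1450417_a_at had -1.17 (adjusted p = 0.0200) and 1421935_at had -0.84 (adjusted p = 0.0880). Which transcripts the dim and bright sets detect was not tested, since no probe sequences were used here.

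**Figure D5:**
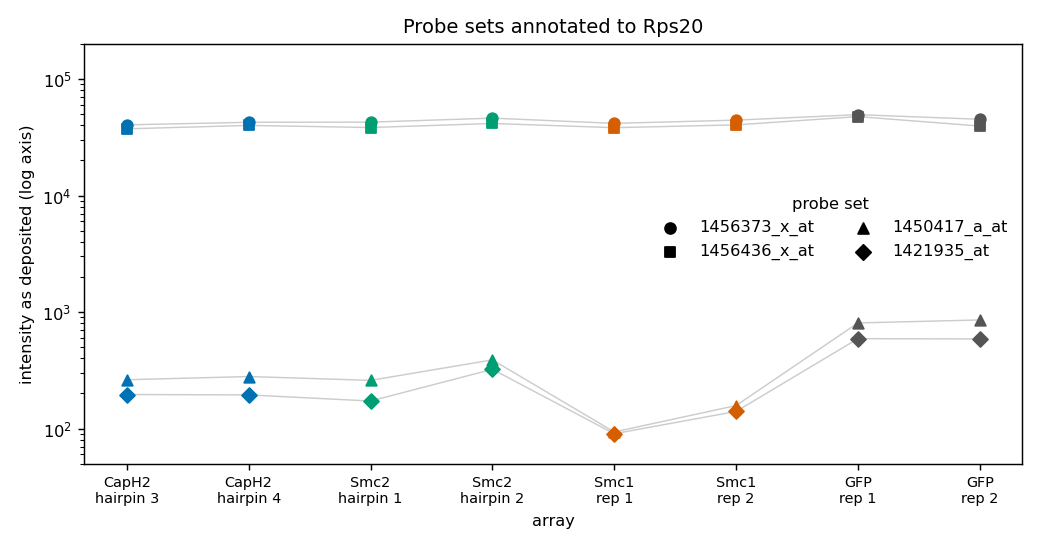
Deposited intensity (log axis) of the 4 probe sets annotated to Rps20, by array. The 2 bright sets are nearly level across the arrays, and the 2 dim sets are between 90.2 and 389 on the knockdown arrays and between 588 and 855 on the GFP arrays.

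The other sets called in Smc1 were smaller changes. Rps3, a small-subunit protein at the mRNA entry, read 2097 and 2479 on Smc1 against 3706 and 4509 on GFP arrays with its dimmer set 1455600_at (-0.84, limma adjusted p = 0.0195), and its brightest set had -0.21 with no call. The 1455600_at call was lost without either GFP array (0.0761 and 0.125) or without Smc1 replicate 1 (0.171). Rpl13a had calls in 1433928_a_at (-0.47, adjusted p = 0.0304) and 1455001_x_at (-0.43, adjusted p = 0.0419), while its 2 brighter sets had -0.21 and -0.10 with no call. The 1433928_a_at call was lost without GFP replicate 1 (0.175) or either Smc1 array (0.214 and 0.0847). The 1455001_x_at call was lost without those arrays (0.227, 0.250 and 0.109) and without either CapH2 array (0.0546 and 0.0550). A dimmer set of Rpl22, 1448398_s_at, had -0.82, -0.92 and -1.05 in CapH2, Smc2 and Smc1 with no call (adjusted p = 0.0591 in Smc1). Another 108 probe sets named a member among several symbols, 77 of them above 16384. Their medians were -0.25, -0.11 and -0.17 in CapH2, Smc2 and Smc1, and -0.03, -0.01 and -0.03 after quantile normalization.

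Genes linked to the ribosomal proteins were counted from lists, to be read against the Smc1 background of 9.38% called higher and 4.69% called lower. In CapH2 and in Smc2, 0 genes of the 7 lists below were called (background 0.0161% each). In Smc1, 0 of 22 other genes listed as TOP genes were called, with a median of -0.19 as deposited and -0.06 after quantile normalization. That list also holds genes outside translation, such as Gas5, Snhg1 and Vim, and Vim is counted again among the feeder markers below. Fau, which encodes a ubiquitin-like fusion of the small-subunit protein eS30, read 26246 and 27992 on Smc1 against 33427 and 26777 on GFP arrays and was not called (-0.14). Of 30 initiation and release factors 3 were lower and 0 higher, led by Abce1, the ribosome recycling ATPase (-0.78, adjusted p = 0.00586) and Eif2s2, the beta subunit of eIF2 (-0.50, adjusted p = 0.0189). After quantile normalization 2 were called lower, without Eif4ebp1, and after median centring Abce1 alone was, with Eif2s2 at an adjusted p of 0.0521.

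Of 75 mitochondrial ribosomal proteins 1 was higher, Mrps34 (1.04), and 3 were lower, Mrps31 (-0.92), Mrpl24 (-0.58) and Mrpl47 (-0.50). The Mrpl24 call was lost after quantile normalization (adjusted p = 0.0555), and those of Mrpl24 and Mrpl47 after median centring (0.0560 and 0.0952), which called a further gene higher. Of 72 ribosome biogenesis genes 1 was higher, Brix1, a factor of large-subunit assembly (0.71), and 2 were lower, Nob1, the nuclease that matures 18S rRNA (-0.67) and Senp3, a nucleolar SUMO protease (-0.66). Of 19 genes of ribosomal stress and p53, 4 were higher and 0 lower: Btg2 (1.25), Phlda3 (0.95), Mdm2 (0.80) and Ccng1 (0.60), with 5 higher after quantile normalization and 5 after median centring. Of 22 regulators of ribosomal protein synthesis, Rps6ka3, an S6 kinase of the RSK family (1.33), and Yy1 (0.51) were higher and Gabpa, the ETS subunit of GABP (-1.06), and Eif4ebp1, an mTOR target that holds back initiation (-0.42), were lower. The Eif4ebp1 call was lost after quantile normalization (adjusted p = 0.0949) and after median centring (0.119). Of 14 chaperones and import factors 1 was lower, Ipo7 (-0.42), and 0 after either scaling.

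Markers of cell state were called in Smc1, and 0 of them in CapH2 or Smc2. Of 13 pluripotency markers 7 were lower and 1, Lin28a, was higher (adjusted p = 0.0505 after median centring), and their summed intensity was 97906 and 116966 on Smc1, 134458 and 137429 on CapH2, 143822 and 147438 on Smc2 and 154143 and 151301 on GFP arrays. Of 12 tested endoderm and other differentiation markers 3 were higher (Cdx2, Nes and Pax6) and 1 lower (Sox1). The sum over the 16 measured was 48071 and 34145 on Smc1, 18287 and 8832 on CapH2, 12442 and 16952 on Smc2 and 16356 and 22508 on GFP arrays. Most of the Smc1 sum came from Krt8 (20015 and 15514) and Krt18 (25785 and 16752), neither of which was called. Of the endoderm genes Gata4, Gata6, Sox17, Sox7 and Foxa2 none was called. Afp, Ttr and Mixl1 were below the median on all arrays. Of 18 tested feeder fibroblast markers 3 were higher (Col3a1, Pdgfra and Cd44) and 0 lower. Fn1, Vim and Acta2, which were not called, gave most of the feeder sum on every array. The sum over 24 measured was 25053 and 27049 on Smc1, 22089 and 19623 on CapH2, 17502.5 and 18272 on Smc2 and 17016 and 25840 on GFP arrays, with Col6a1, Col6a3, Lum, Dcn, Fap and Prrx1 below the median on all arrays and none listed at 0. Actb 3′ to 5′ ratios, a sign of RNA quality, were 1.70 and 1.84 on Smc1, 1.67 and 1.98 on CapH2, 1.82 and 2.18 on Smc2 and 2.18 and 2.04 on GFP arrays. The median changes of the tested markers in CapH2, Smc2 and Smc1 were -0.08, -0.09 and -0.73 for pluripotency, 0.52, 0.34 and 0.54 for differentiation and 0.49, 0.11 and 0.56 for feeder markers. The part of these shifts in the members' changes was not tested, and in bulk arrays fewer cells of a type and less RNA per cell cannot be told apart.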

How the data were processed

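The authors deposited 44903 linear intensity values per array, 1 for each probe set; the sources used here do not name the summarisation. Means trimmed by 2% were 488.9 to 490.0 on all arrays, so arrays had been scaled. Symbols came from the platform annotation: 34771 probe sets had 1 symbol, 926 several and 9206 none, and 64 controls were left out. Of the first, 34554 matched a RefSeq gene table, with 0 symbols changed. No genome build is named for the arrays. One limma fit (limma 3.58.1, R 4.3.3) of log2(value + 16) covered the 4 groups, with an intensity trend; residual degrees of freedom were 4 and prior ones 5.95. Called means a Benjamini-Hochberg adjusted p below 0.05 over the genes tested in a comparison. The fit was tested on simulated data. With 2 arrays per group, their number limits precision. Alternatives were quantile normalization, median centring, pseudocounts 1 and 64, no filter, mean of probe sets, no trend, fewer arrays, a replicate block and each array left out. Named were called members, the 5 largest rises and falls against GFP, the brightest and dimmest members, paralogues and members with known roles. Members, lists and tests were chosen with earlier results of these data known.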

Additional observations from a re-analysis of the deposited data

How the results depend on the processing

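No member call or called direction reversed under any alternative. In the comparisons CapH2 against GFP, Smc2 against GFP and CapH2 against Smc2, 0 members were called by limma under each alternative. In Smc1 against GFP the count of 3 became 1 without the intensity trend and 5 with only the arrays compared. The calls of all 12400 genes moved too, from 582 lower to 364 without the trend and 1017 with only the arrays compared. The member calls also depended on single arrays, as given above. In Smc1 against both condensin knockdowns the count of 2 became 1 with a pseudocount of 1, 1 with the mean of all probe sets, 0 without the filter, 0 without the trend and 0 with only the arrays compared. There the calls of all genes moved from 278 lower to 267, 196, 165, 160 and 156 in these settings, in the same order. With 1 array left out, calls were lost here too. Quantile normalization moved the members' median change to -0.0095 in CapH2 against GFP, -0.0061 in Smc1 against GFP and -0.013 in CapH2 against Smc2. It moved the CapH2 difference in share to -0.11 points. Median centring left that median at -0.17 in CapH2 against GFP and -0.12 in Smc1 against GFP (all genes 0.08 and 0.05). In CapH2 against Smc2 it was -0.17 (all genes -0.02). With 1 array left out the medians ranged from -0.3807 to -0.0915 in CapH2 against GFP, from -0.2393 to 0.0456 in Smc2 against GFP and from -0.2815 to -0.0086 in Smc1 against GFP. Smc1 and GFP share replicate numbers in the labels, with 2 pairs only: deviations of same-numbered arrays correlated at 0.066 over all genes and at -0.31 over the members. The replicate block gave 2 called members in Smc1 against GFP, with a median of -0.14, and Rpl12 at an adjusted p of 0.0561, and 0 in Smc1 against both condensin knockdowns. The tests of single probe sets and of sets with several symbols were chosen after seeing the data. Among 107 named results that were not called, 1567 of 1737 values under alternatives moved by less than 1 SD, 157 moved by more and 13 passed the threshold. The causes were not tested. The number of arrays, 2 per group, limits every call.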
